A study of Mus musculus with 6 samples.

Results

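Small proline-rich genes are described here in the mouse uterus on gestational day 4, where finding the vaginal plug marks day 1. The members were named by symbol as Sprr2a1, Sprr2b, Sprr2d, Sprr2e, Sprr2f, Sprr2g and Sprr1a. Of these 7 genes, 6 had a row among the 21936 rows of the files, and Sprr2g was not analysed here. The 6 libraries came from whole uteri of pregnant females mated at 6 to 8 weeks of age, 3 from Mettl3 d/d and 3 from Mettl3 f/f mice. Mettl3 encodes the catalytic subunit of the RNA methyltransferase complex behind N6-methyladenosine. By the usual notation d/d stands for the deleted form of a floxed allele and f/f for the floxed allele itself. The Cre line, the cells it acts in and the deleted exons have no entry in the labels used here. Nothing in the labels says that the replicates were separate animals, so the tests measure the spread between these libraries.

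Small proline-rich proteins are precursors of the cornified envelope, the protein shell that transglutaminases cross-link beneath the membrane of cells in stratified epithelia such as skin. Their genes lie side by side in the epidermal differentiation complex, next to those of loricrin, involucrin, the late cornified envelope proteins and many S100 proteins. The uterus is lined by a simple epithelium and does not cornify, yet Sprr2 genes are known to be raised by estrogen in the mouse uterine epithelium. Day 4 is normally a time of high progesterone, when the uterus prepares for implantation.

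Values were taken as FPKM, a level per gene length and per mapped fragments of the library, and are listed below in the order of replicates 1, 2 and 3 of each genotype. They summed to 535043 to 625575 per library, with 15978 to 16359 genes above 0, and the files give no read numbers. The relative depths, estimated from the smallest values, were 0.935 to 1.01, with f/f replicate 1 set to 1. The d/d libraries differed more among themselves (Spearman correlation over genes 0.951 to 0.965) than the f/f libraries did (0.984 to 0.988), and pairs across genotypes lay at 0.945 to 0.968. The first d/d library was closer to each f/f library (0.967 to 0.968) than to the other d/d libraries (0.962 and 0.965), and it also had the lowest Sprr2f value of the d/d libraries. Mettl3 stood at 42.9, 30.1 and 46.5 FPKM in d/d libraries, and at 30.3, 29.8 and 26.3 FPKM in f/f libraries (difference of 0.43 on the log2 scale, limma adjusted p = 0.202). Exons that a deletion leaves in place still add to this level, so it does not check the labels. All directions below rest on the labels, and d/d means the libraries labelled so.

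The family forms 1 run of genes on chromosome 3. The annotation (GRCm38) places 17 small proline-rich genes and pseudogenes within 285 kb, from Sprr2a1 at 92215799 to the end of Sprr4 at 92500493. Sprr2f (ENSMUSG00000050635) lies at 92365187 to 92366442 and Sprr2d (ENSMUSG00000042212) at 92339140 to 92340873, both on the plus strand. Sprr2e (92352143 to 92353449) lies between them, and Sprr2b (92316620 to 92318085) before them. Sprr1a (92483952 to 92485895) lies on the minus strand near the other end of the run.

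How far the members can be told apart differs from gene to gene. Of the 50-base windows in the annotated Sprr2a1 transcript, 96.3% also occurred exactly in another small proline-rich transcript, mostly that of Sprr2a2. That share was 14.1% for Sprr2b, 10.2% for Sprr2e, 4.27% for Sprr2d and 0.714% for Sprr2f, and no window of Sprr1a was shared. With 100-base windows it was 92.5% for Sprr2a1, 1.09% for Sprr2e and 0.438% for Sprr2b, and no window of Sprr2d, Sprr2f or Sprr1a was shared. These are exact matches to 1 annotation, and the labels used here state no read length. The Sprr2a1 value is therefore uncertain as a value of a single gene, and those of Sprr2b and Sprr2e partly so.

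The promoters of the members with d/d values of 1 FPKM or more are shown because most carry the same short motifs at nearly the same distances from the start. Each window runs from 250 bases before the gene's start to 50 bases after it, from RefSeq on build GRCm38.p6, written 5′ to 3′ along the gene's strand. Windows were found for 6 of the 7 members. Capitals mark matches, on either strand, to TATAAA (the TATA box), TGANTCA (the AP-1 type) and ATTTGCAT (the octamer). The windows are chr3:92364937-92365236 (plus strand) for Sprr2f, chr3:92338890-92339189 (plus) for Sprr2d, chr3:92351893-92352192 (plus) for Sprr2e, chr3:92316455-92316754 (plus) for Sprr2b and chr3:92485832-92486131 (minus) for Sprr1a.

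Sprr2f: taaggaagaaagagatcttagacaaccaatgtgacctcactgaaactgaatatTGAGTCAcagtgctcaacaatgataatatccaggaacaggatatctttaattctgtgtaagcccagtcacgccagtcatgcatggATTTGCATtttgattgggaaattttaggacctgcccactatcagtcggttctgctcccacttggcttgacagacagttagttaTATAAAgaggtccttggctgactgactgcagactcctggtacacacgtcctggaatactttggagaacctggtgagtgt

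Sprr2d: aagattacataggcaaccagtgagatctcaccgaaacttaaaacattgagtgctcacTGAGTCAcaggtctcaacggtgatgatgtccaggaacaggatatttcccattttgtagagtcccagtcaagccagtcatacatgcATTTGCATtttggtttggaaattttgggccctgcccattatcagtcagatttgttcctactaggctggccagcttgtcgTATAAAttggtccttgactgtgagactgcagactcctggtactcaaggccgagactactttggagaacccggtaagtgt

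Sprr2e: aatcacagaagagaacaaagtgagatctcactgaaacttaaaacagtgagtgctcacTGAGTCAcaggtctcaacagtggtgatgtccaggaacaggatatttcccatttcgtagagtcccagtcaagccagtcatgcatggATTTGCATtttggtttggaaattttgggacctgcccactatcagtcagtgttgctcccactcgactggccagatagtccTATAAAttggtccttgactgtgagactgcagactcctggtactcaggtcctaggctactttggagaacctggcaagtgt

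Sprr2b: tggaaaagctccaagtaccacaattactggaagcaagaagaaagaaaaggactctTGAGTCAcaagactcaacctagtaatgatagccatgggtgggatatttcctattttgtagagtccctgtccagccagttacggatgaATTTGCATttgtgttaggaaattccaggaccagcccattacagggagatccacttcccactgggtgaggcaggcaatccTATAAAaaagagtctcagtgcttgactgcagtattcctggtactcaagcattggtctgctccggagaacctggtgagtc

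Sprr1a: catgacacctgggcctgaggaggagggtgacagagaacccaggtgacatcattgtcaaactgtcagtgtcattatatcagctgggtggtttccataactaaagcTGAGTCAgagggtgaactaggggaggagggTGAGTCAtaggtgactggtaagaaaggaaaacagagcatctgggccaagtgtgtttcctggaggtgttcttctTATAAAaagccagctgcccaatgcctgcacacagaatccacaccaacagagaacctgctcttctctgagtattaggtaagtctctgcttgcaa

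All 3 motifs were present together in Sprr2f, Sprr2d, Sprr2e and Sprr2b, against 0.0492% (16) of 32544 distinct mouse promoter windows of the same length. Those 16 include the windows of these 4 members and of 3 other genes of the family. The windows of related genes are alike in sequence, so they are not separate occurrences. Singly, TATAAA was found in 13.6%, TGANTCA in 7.79% and ATTTGCAT in 1.75% of all windows. The TATA box began at -29 from the start in these 4 genes, the octamer at -112 in Sprr2f and -108 in the other 3, and the AP-1 type motif at -193 to -197. Sprr1a had the TATA box at -43 and the AP-1 type motif at both -146 and -116, without the octamer. None of these 3 motifs was in the Sprr2a1 window. That window ends in a stretch much like the one just before the TATA box of Sprr2b. It therefore cannot show whether Sprr2a1 has a TATA box at the matching place. The full palindromic estrogen response element, GGTCA and TGACC with 3 bases between them, was in none of the 6 windows and in 0.0707% of all windows. Its arm GGTCA was in the Sprr2f window, on the minus strand, and in 40.5% of all windows. TTTCCT, the ETS type, was in Sprr2b and Sprr1a and in 29.2% of all windows.

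The same 3 motifs stood together in Sprr2h, Sprr2i and Sprr2k, which were listed at 0 FPKM in all 6 libraries. The motif content of the windows thus did not separate rows with high values from rows listed at 0. The windows of Sprr2d and Sprr2e were 89.9% identical over 298 aligned bases, those of Sprr2e and Sprr2f 81.5% over 287, and those of Sprr2b and Sprr2f 68.4% over 288.

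Sprr2f had the highest value of the family in every library and rose in the d/d uteri. It stood at 301, 420 and 1853 FPKM in d/d libraries, against 21.7, 16.8 and 50.4 FPKM in f/f libraries. The genotypes did not overlap, and the lowest d/d library was above the highest f/f library by a wide margin. The means were 858 ± 864 FPKM in d/d and 29.7 ± 18.1 FPKM in f/f libraries (SD, n = 3 each), a 28.9-fold ratio. In these bulk samples of whole uterus, more cells of a type and more RNA per cell cannot be told apart. On the log2(FPKM + 1) scale the difference was 4.49 (SE 0.75, 95% interval 2.69 to 6.29, limma adjusted p = 0.0264). Among all genes Sprr2f ranked 186th, 160th and 26th in d/d libraries, and 4633rd, 5656th and 1918th in f/f libraries.

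The size of the Sprr2f difference depended on d/d replicate 3, and its call on the f/f libraries. Without d/d replicate 3 the ratio of means was 12.2 (log2 difference 3.70, limma adjusted p = 0.0256), and without f/f replicate 3 it was 44.5. Leaving out d/d replicate 1, the library nearest to the f/f libraries, gave a ratio of 38.3 (log2 difference 5.01, limma adjusted p = 0.0265). With f/f replicate 1, 2 or 3 left out the limma adjusted p was 0.128, 0.126 and 0.0787. Few genes of any kind passed in those fits, with 0, 6 and 50 higher and 0, 24 and 61 lower, against 453 higher and 494 lower with all 6 libraries.

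Sprr2d was listed at 0 in all 3 f/f libraries and was high in a single d/d library. It stood at 1.39, 354 and 4.71 FPKM in d/d libraries. In d/d replicate 2 it came close to Sprr2f, at 84.3% of the Sprr2f value, while in d/d replicates 1 and 3 it was at 0.461% and 0.254% of it. The difference of 4.08 on the log2 scale did not pass (limma adjusted p = 0.207, 95% interval -0.21 to 8.38). With d/d replicate 2 left out the adjusted p was 0.0412 and the log2 difference 1.88.

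Sprr1a, from the other branch of the family, also had 1 library far above the rest, but a different one. It stood at 4.83, 5.04 and 229 FPKM in d/d libraries. It was listed at 0 in the first f/f library and stood at 0.0976 and 1.17 FPKM in the other f/f libraries. The genotypes did not overlap, but the difference of 3.91 on the log2 scale did not pass (95% interval 0.44 to 7.37, limma adjusted p = 0.147). Without d/d replicate 3 the log2 difference was 2.15 (adjusted p = 0.0399).

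Sprr2b was near 0 in f/f libraries and uneven in d/d libraries. It stood at 0.820, 24.8 and 14.4 FPKM in d/d libraries. One f/f library, replicate 1, held 0.102 FPKM, and the others were listed at 0. It reached 1 FPKM in 2 libraries, 1 short of the 3 that the test required. With no filter on low values its adjusted p was 0.142 (limma), and with a filter on the mean it was 0.103.

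Sprr2e was the member with the most even d/d values, all close to 1 FPKM. It stood at 1.36, 1.26 and 1.02 FPKM in d/d libraries. Among f/f libraries only replicate 3 was above 0, with 0.271 FPKM. This rise of 1.03 on the log2 scale passed (SE 0.19, limma adjusted p = 0.0341). Relative to Sprr2f in the same library, Sprr2e was at 0.454%, 0.299% and 0.0550% in d/d libraries, so it did not keep a fixed proportion to its more abundant neighbour. Leaving out d/d replicate 1 ended that call (adjusted p = 0.0549), as did leaving out f/f replicate 1, 2 or 3 (0.155, 0.153 and 0.0872). It was also lost with a pseudocount of 0.1 (0.0518) and with a weight per genotype (0.0666).

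Sprr2a1 held 0, 0.0625 and 0.0653 FPKM in d/d libraries and was listed at 0 in every f/f library. The row of its close copy Sprr2a3, which is no member, was at 1.26, 41.5 and 119 FPKM in d/d libraries, and at 0, 0 and 0.623 FPKM in f/f libraries. Sprr2a2 was at 0.0214 to 0.110 FPKM in d/d libraries and listed at 0 in f/f libraries. Of the Sprr2a3 windows of 50 bases, 61.1% occurred in Sprr2a1. The signal of the Sprr2a copies thus stood almost wholly in the Sprr2a3 row, and which copy it came from cannot be told from these files. Sprr2a3 did not pass (log2 difference 4.26, limma adjusted p = 0.114). Its adjusted p was 0.00774 when d/d replicate 1 was left out, and 0.181 and 0.175 without d/d replicate 2 or 3. Sprr2a3 reached 1 FPKM in d/d libraries only, so its passing the filter already favoured a difference.

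**Figure D1:**
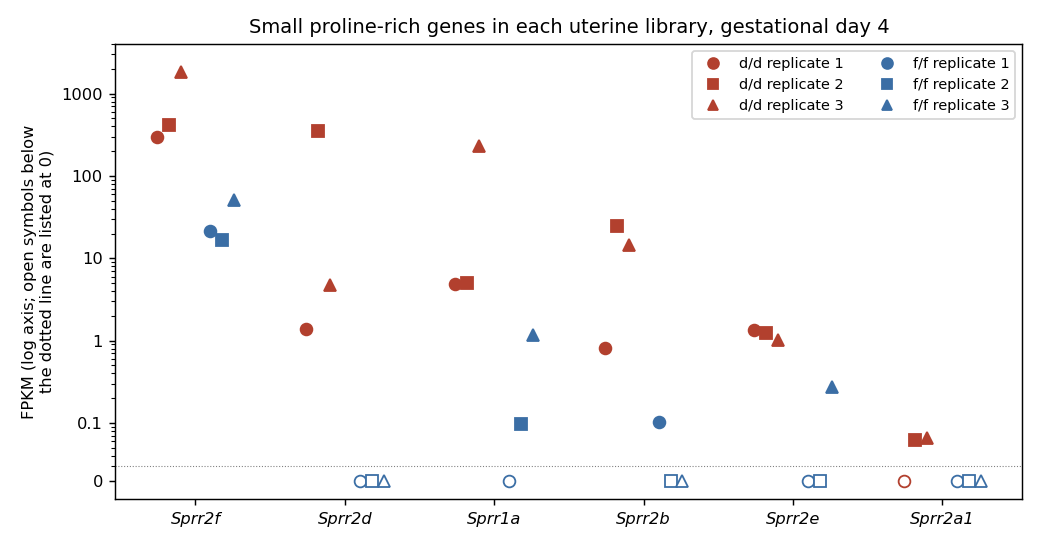
FPKM on a log axis of the 6 measured members in each library, with d/d libraries in red to the left and f/f libraries in blue to the right, and open symbols at the bottom for values listed at 0. Sprr2f was above 300 FPKM in every d/d library and at 50.4 FPKM or less in f/f libraries, while Sprr2d peaked in d/d replicate 2 and Sprr1a in d/d replicate 3.

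Of the 6 measured members, 2 rose, 0 fell, 2 did not pass and 2 were not tested because of low values. With d/d replicate 1 left out, 1 rose (Sprr2f). Over all genes tested, 7.30% were called by the same rule, 3.49% higher and 3.81% lower. At an unadjusted p under 0.05 (limma), 1700 of the 12979 genes tested were higher and 1760 lower. The list counts at that threshold given below are to be set beside these numbers. All d/d libraries were above all f/f libraries in 5 of the 6 members, against 15.5% of the 17739 genes above 0 in any library. Of the 4 members tested, Sprr2d and Sprr2e reached 1 FPKM in d/d libraries only, and Sprr1a in all d/d libraries and f/f replicate 3, so their passing the filter already favoured a difference. Only Sprr2f reached 1 FPKM in every library. An exact two-sided permutation test over libraries gave p = 0.1 for each member but Sprr2a1 (p = 0.4), and no smaller p than 0.1 can come from 3 libraries a side.

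The order of the members changed between the d/d libraries, with Sprr2f first in each. In d/d replicate 1, Sprr2f was followed by Sprr1a, and the remaining members were at 1.39 FPKM or below. In d/d replicate 2, Sprr2f was followed by Sprr2d and then Sprr2b. In d/d replicate 3, it was followed by Sprr1a and then Sprr2b, with Sprr2d at 4.71 FPKM. In f/f libraries Sprr2f was the only member above 1.17 FPKM.

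Since single rows of the family share some sequence, the rows were also added up. The Sprr2 members summed to 304, 800 and 1873 FPKM in d/d libraries, and to 21.8, 16.8 and 50.7 FPKM in f/f libraries. Relative to the f/f mean, the d/d libraries were at 10.2, 26.9 and 62.9 times that sum. This sum leaves out Sprr2a3 and the other Sprr2 rows that are no members. With every Sprr2 row added, the sums were 306, 842 and 1992 FPKM in d/d and 21.8, 16.8 and 51.3 FPKM in f/f libraries. Sprr2f made up 96.8%, 49.6% and 83.4% of the signal of all small proline-rich rows in d/d libraries, and 99.3%, 99.4% and 96.1% in f/f libraries. Sprr2d made up 41.8% in d/d replicate 2, and Sprr1a 10.3% in d/d replicate 3.

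Most of the other 9 small proline-rich rows were empty or nearly so. Sprr2h, Sprr2i, Sprr2j-ps, Sprr2k, Sprr1b and Sprr4 were listed at 0 in all 6 libraries. Sprr3 stood at 0.0584 to 0.244 FPKM in d/d libraries and at 0.0570, 0 and 0 FPKM in f/f libraries. Along the chromosome, the rows that reached 1 FPKM in a d/d library ran from Sprr2a3 to Sprr2f with no other row of the files between them, and Sprr1a stood apart.

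**Figure D2:**
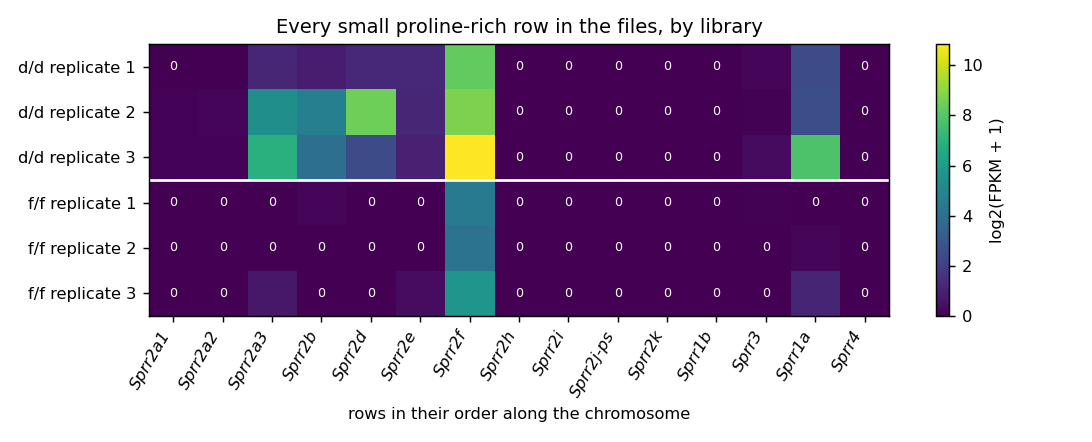
Every small proline-rich row of the files in chromosomal order (columns) in each library (rows, d/d above f/f), coloured by log2(FPKM + 1), with 0 written where the file lists 0. Values in d/d libraries lay in the Sprr2a3 to Sprr2f stretch and in Sprr1a, and those of f/f libraries almost only in Sprr2f.

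Beside the family in the epidermal differentiation complex, S100 genes held most of the signal and late cornified envelope genes almost none. Of 55 neighbouring rows, 26 were listed at 0 in all 6 libraries and 12 could be tested, of which 1 rose, 0 fell and 11 did not pass (limma; unadjusted p under 0.05 in 3 higher and 3 lower). Among 21 late cornified envelope genes, 18 were listed at 0 everywhere and the highest value was 0.181 FPKM. The 15 S100a genes, which encode calcium-binding proteins, summed to 1668, 3640 and 2356 FPKM in d/d and 2464, 2632 and 2495 FPKM in f/f libraries, with 1 of them listed at 0 throughout. S100a11 stood at 879, 1080 and 955 FPKM in d/d and 679, 647 and 611 FPKM in f/f libraries, and S100a6 at 269, 695 and 621 FPKM in d/d and 971, 1176 and 1052 FPKM in f/f libraries. S100a8 and S100a9 were high in d/d replicate 2 alone, at 406 and 560 FPKM. S100a14 rose from this list, at 1.93, 4.00 and 4.62 FPKM in d/d and 0.248, 0.284 and 0.654 FPKM in f/f libraries (log2 difference 1.65, limma adjusted p = 0.0297). It reached 1 FPKM in d/d libraries only, so its passing the filter already favoured a difference. The S100a14 call was lost when d/d replicate 3 or a single f/f library was left out (adjusted p just above the threshold for the d/d library and 0.0928 to 0.141 for the f/f libraries). With d/d replicate 1 left out, 2 neighbouring genes were higher and 1 lower, and without d/d replicate 3, 1 was lower. Ivl, the involucrin gene, stood at 0.568, 0.855 and 3.00 FPKM in d/d libraries, and at 0, 0.0331 and 0.0332 FPKM in f/f libraries.

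No gene of the cornified envelope machinery outside the complex passed. Of 19 genes named, 8 could be tested, with a median log2 difference of 0.63 against 0.02 for all genes (limma; unadjusted p under 0.05 in 2 higher and 1 lower). Cstb, a cysteine protease inhibitor gene, was at 240, 464 and 322 FPKM in d/d and 176, 188 and 171 FPKM in f/f libraries (adjusted p = 0.0804). Ppl, the periplakin gene, was at 11.1, 3.03 and 4.46 FPKM in d/d and 15.9, 13.7 and 23.0 FPKM in f/f libraries (adjusted p = 0.0875). The transglutaminase gene of cornification, Tgm1, was at 0.407, 1.97 and 0.678 FPKM in d/d and 0.504, 0.448 and 0.0876 FPKM in f/f libraries. Among envelope genes, 1 was higher and 1 lower once d/d replicate 1 was left out, while 2 rose when d/d replicate 2 was.

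Among genes outside the family that estrogen is known to raise in the uterus, 9 of 18 rose, 0 fell and 9 did not pass. Over all genes tested, 3.49% were called higher by the same rule, the share to set beside this and the other lists. The median log2 difference was 2.09 for the list against 0.02 for all genes tested. The list was chosen with earlier results of these data known, so its count is a description and no independent test of estrogen response. Lcn2, which encodes lipocalin 2, was at 202, 1992 and 2702 FPKM in d/d and 6.24, 5.77 and 15.9 FPKM in f/f libraries, in the same order of d/d libraries as Sprr2f. Ltf, the lactoferrin gene, stood at 462, 1590 and 948 FPKM in d/d and 57.0, 68.3 and 116 FPKM in f/f libraries (limma adjusted p = 0.0192). Gjb2, a gap junction gene, and C3, a complement gene, rose by 4.97 and 4.83 on the log2 scale (adjusted p = 0.0145 and 0.0150).

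Not every gene of that list moved like Sprr2f. Wnt4, a ligand gene, rose with its lowest d/d value in replicate 3, at 24.4, 20.1 and 7.90 FPKM in d/d and 2.06, 1.26 and 0.849 FPKM in f/f libraries. Padi1, which encodes a peptidylarginine deiminase, was at 21.8, 12.2 and 533 FPKM in d/d and 6.91, 6.12 and 2.02 FPKM in f/f libraries, with 1 library far above the rest as in Sprr1a (adjusted p = 0.191). Igf1 and Wnt11 gave log2 differences of -1.31 and -3.42, neither of which passed (adjusted p = 0.205 and 0.129). Without f/f replicate 1, 2 or 3 the number of genes that rose was 0, 0 and 1, with 10, 11 and 11 higher at an unadjusted p under 0.05 (limma). Without d/d replicate 1 or d/d replicate 3, 1 gene was lower.

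**Figure D3:**
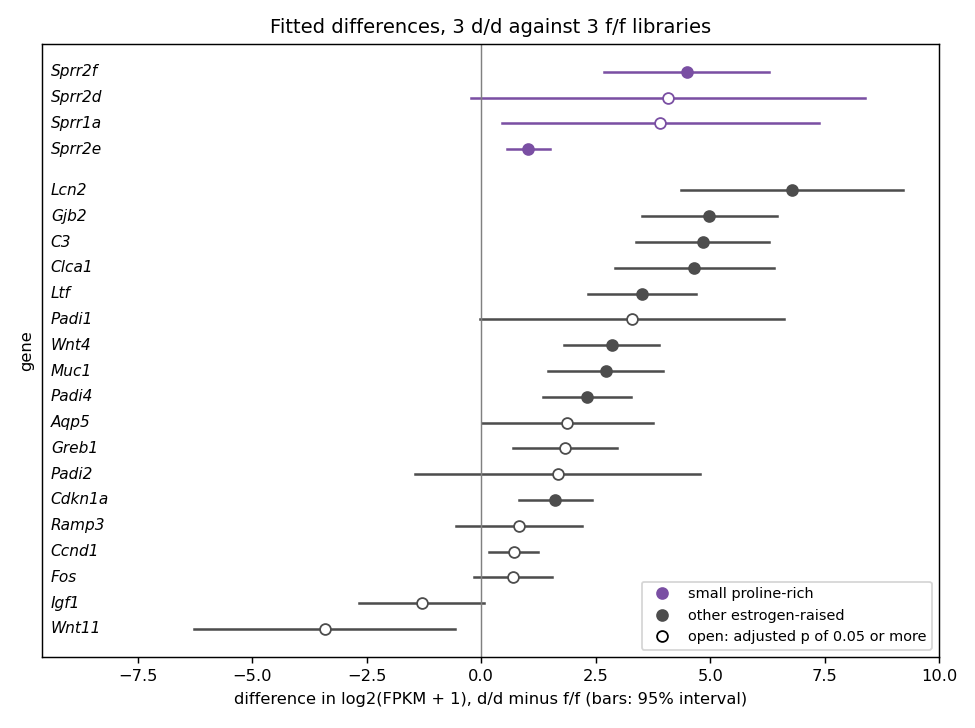
Difference in log2(FPKM + 1), d/d minus f/f, with its 95% interval for the 4 members tested (purple) and 18 other estrogen-raised genes (grey), filled where the limma adjusted p was under 0.05. Sprr2f and Sprr2e were filled among the members, and the intervals of Sprr2d and Sprr1a were wide.

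Among transcription factors of epithelial differentiation and of estrogen response, 1 of 15 tested rose, 0 fell and 14 did not pass (limma; unadjusted p under 0.05 in 5 higher and 0 lower). Over all 12979 genes tested, 1700 were higher and 1760 lower at that unadjusted threshold. Nfe2l2, an oxidative stress factor gene, rose, at 99.8, 121 and 122 FPKM in d/d and 67.7, 67.3 and 72.2 FPKM in f/f libraries (log2 difference 0.71, adjusted p = 0.0289). Elf3, an epithelial ETS factor gene, was at 135, 61.2 and 641 FPKM in d/d and 46.3, 39.0 and 30.3 FPKM in f/f libraries, without overlap and without passing (adjusted p = 0.150). Fosl2 and Junb, which encode AP-1 subunits, had log2 differences of 0.93 and 1.15 (adjusted p = 0.0960 and 0.114). Esr1, the estrogen receptor gene, was at 53.8, 37.5 and 52.6 FPKM in d/d and 46.0, 43.7 and 52.8 FPKM in f/f libraries (95% interval of the log2 difference -0.42 to 0.42). The number of factors that rose was 2 without d/d replicate 1, 3 without d/d replicate 2 and 0 when a single f/f library was left out.

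Markers of the uterine epithelium were followed beside the family in the same libraries. The 12 luminal and shared epithelial markers, of which 1 (Elf3) is also among the factors above, summed to 2341, 977 and 3821 FPKM in d/d libraries, and to 1320, 1287 and 1486 FPKM in f/f libraries. Relative to the f/f mean these sums were 1.72, 0.716 and 2.80 in d/d libraries, where Sprr2f was at 10.1, 14.2 and 62.5. In d/d replicate 2 the marker sum was thus below every f/f library while Sprr2f was above them all. That low sum rested largely on Cldn3, at 390, 76.3 and 294 FPKM in d/d and 433, 466 and 483 FPKM in f/f libraries. The markers did not fall together there. Epcam, for example, was at 165 FPKM in d/d replicate 2 against 78.9 to 95.4 FPKM in f/f libraries. Of these markers 3 rose, 0 fell and 9 did not pass (8 rose without d/d replicate 2, 2 without d/d replicate 1, 1 with no filter, and 0 without a single f/f library). Their part in the Sprr2f difference was not tested. Krt7, a keratin gene of simple epithelia, rose, with means of 125 ± 98.3 FPKM in d/d and 16.3 ± 3.53 FPKM in f/f libraries (SD, n = 3 each) and no overlap. Its difference passed (log2 difference 2.61, limma adjusted p = 0.0363). Epcam, an epithelial adhesion gene, rose by 1.54 on the log2 scale (limma adjusted p = 0.0452). Both calls were lost with no filter (0.0574 for Krt7 and 0.0680 for Epcam) and without a single f/f library, and that of Epcam also without d/d replicate 1 (0.0736).

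Markers of stratified squamous epithelium, where these proteins are abundant, were low throughout. The 14 markers summed to 12.1, 12.0 and 16.5 FPKM in d/d and 10.7, 9.42 and 8.47 FPKM in f/f libraries, and Krt10 made up most of the sum in f/f libraries. Without Krt10 the sums were 6.42, 4.36 and 10.8 FPKM in d/d and 1.28, 1.78 and 1.99 FPKM in f/f libraries. Krt5, a defining keratin gene of the basal layer, was at 0, 0.176 and 0.399 FPKM in d/d libraries and listed at 0 in all f/f libraries. Trp63, the basal layer factor gene, was at 0.232, 0.0129 and 0.0389 FPKM in d/d and 0.202, 0.457 and 0.457 FPKM in f/f libraries. Only 1 of the 14 markers could be tested, and it did not pass (limma; unadjusted p under 0.05 in 0).

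Most neutrophil and myeloid markers were highest in the same library as Sprr2d, with Ly6g and Mpo as exceptions. The 10 markers summed to 89.6, 1350 and 53.3 FPKM in d/d libraries, and to 43.4, 34.2 and 35.9 FPKM in f/f libraries. S100a8 was at 4.91, 406 and 0.238 FPKM in d/d libraries and at 1.78, 0.664 and 2.42 FPKM in f/f libraries. Both it and Sprr2d were highest in d/d replicate 2. The neutrophil surface gene Ly6g was instead highest in d/d replicate 3, at 3.59, 5.80 and 25.0 FPKM in d/d and 1.15, 0.927 and 1.02 FPKM in f/f libraries. Mpo, the myeloperoxidase gene, was also highest there, at 0, 0.284 and 1.63 FPKM in d/d and 0.693, 1.00 and 0.181 FPKM in f/f libraries. The neutrophil granule genes Elane and Camp were at 0 and 0.440 FPKM in d/d replicate 2, and none of the 7 markers tested passed (limma; unadjusted p under 0.05 in 2 higher and 0 lower). Without d/d replicate 1, without d/d replicate 3 or with a weight per genotype, 1 of them was higher. The part of these cells in the Sprr2d value was not tested. For Sprr1a, the sums in d/d replicate 3 were the highest of any library for luminal epithelium and for squamous markers, and their part in its value was not tested.

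**Figure D4:**
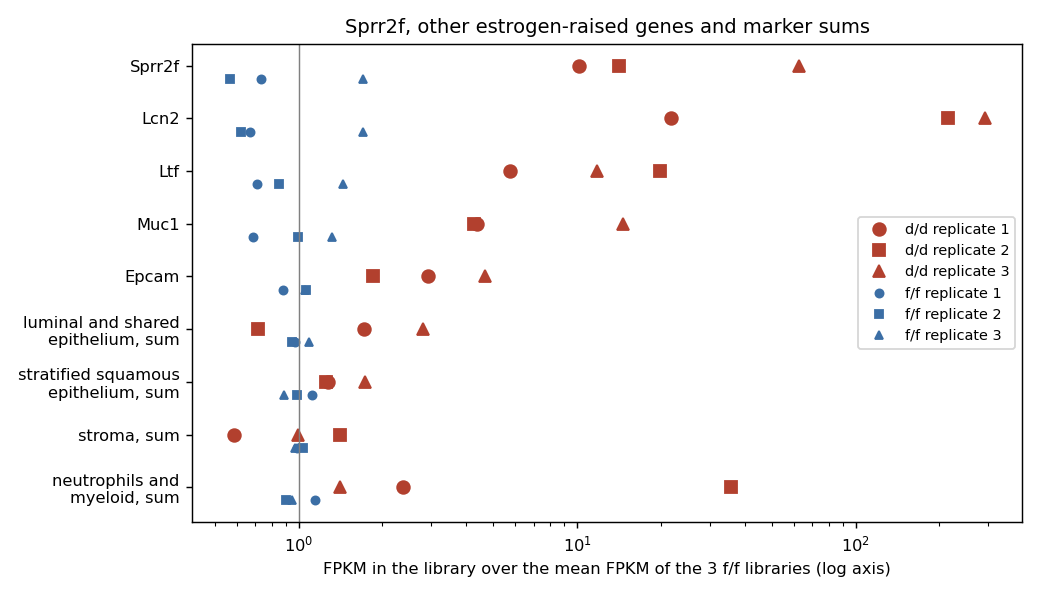
FPKM in each library over the mean of the 3 f/f libraries, on a log axis, for Sprr2f, 4 other genes and 4 sums of cell type markers, with d/d libraries in red and f/f libraries in blue. Sprr2f stood at 10.1 to 62.5 in d/d libraries, the luminal and shared epithelial sum at 0.716 to 2.80 and the myeloid sum at 35.7 in d/d replicate 2.

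In the remaining marker lists no gene rose. Among 4 glandular genes tested 1 fell, Spink1, a protease inhibitor gene, at 0.455, 0 and 0 FPKM in d/d and 31.0, 36.9 and 20.7 FPKM in f/f libraries, and its call was lost without f/f replicate 1 (limma adjusted p = 0.0549). It reached 1 FPKM in f/f libraries only, so its passing the filter already favoured a difference. Among 8 stromal genes 1 fell, Hoxa11, a homeobox factor gene, at 26.9, 39.6 and 21.0 FPKM in d/d and 136, 131 and 138 FPKM in f/f libraries, and 3 were lower at an unadjusted p under 0.05. Among 6 endothelial genes 1 fell, Cdh5, an adherens junction gene, at 24.0, 30.8 and 17.9 FPKM in d/d and 65.9, 72.0 and 46.6 FPKM in f/f libraries. In 5 of these 6 all d/d libraries were below all f/f libraries, against 17.8% of genes tested, and 5 had an unadjusted p under 0.05. The Hoxa11 and Cdh5 calls were lost without a single f/f library, and that of Cdh5 also with no filter (0.0519), with a weight per genotype (0.0564) and without d/d replicate 1 (0.0564). None of 6 smooth muscle genes passed (limma; unadjusted p under 0.05 in 0). Stromal markers summed to 1562, 3762 and 2663 FPKM in d/d and 2645, 2783 and 2593 FPKM in f/f libraries. Endothelial markers summed to 154, 196 and 108 FPKM in d/d and 293, 330 and 213 FPKM in f/f libraries, and smooth muscle markers to 1028, 1961 and 4648 FPKM in d/d and 3570, 5740 and 2349 FPKM in f/f libraries. Glandular markers summed to 68.5, 16.1 and 20.7 FPKM in d/d and 54.6, 68.8 and 78.5 FPKM in f/f libraries. Their part in the small proline-rich values was not tested.

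The genes nearest to the mean profile of the 4 members tested were found by distance. The centred log2(FPKM + 1) values of the 4 members tested were averaged over the 6 libraries, and every one of 12612 other named genes was ranked by its root mean square difference from that profile. Nearest was Trpv6, an epithelial calcium channel gene, with a difference of 0.30. It stood at 15.8, 41.1 and 98.2 FPKM in d/d and 2.42, 2.24 and 3.32 FPKM in f/f libraries. Pla2g2e, a secreted phospholipase gene (0.34), the potassium channel gene Kcnn4 (0.38), Inhbb, an inhibin and activin subunit gene (0.38), and Cyp21a1, a steroid hydroxylase gene (0.39), came next. Ltf (0.40), the prolyl hydroxylase gene Egln3 (0.47) and the annexin gene Anxa8 (0.51) completed the nearest 8. Likeness over 6 libraries in 2 groups reflects the genotype difference itself together with the order of the d/d libraries. The mean is also the profile of no single member. In d/d replicates 1, 2 and 3 the centred values were -0.79, 6.43 and 0.47 for Sprr2d, and 0.17, 0.22 and 5.47 for Sprr1a. A gene near the mean is thus not shown to be like any 1 member.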

How the data were processed

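Whole-uterus RNA of 6 libraries (3 Mettl3 d/d, 3 Mettl3 f/f) was extracted with TRIzol and made into libraries with a TruSeq RNA kit, per the labels' protocols. Per the submitters' processing notes, the tools were HISAT2 (2.2.1) and Cufflinks (2.2.1), with mm9 as well as mm10 named as builds. The authors deposited 1 value per gene and library, taken here as FPKM from the values (decimals, unequal totals), since the file headers name no unit. No source used here states the annotation, how fragments that fit several places were handled, or whether strand was used. Of all rows, 19.1% were listed at 0 in all 6 libraries, and a 0 may be a failed estimate, so members with a 0 are given by library.

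For symbols with several rows the highest was kept (36 rows dropped). Genes at 1 FPKM or more in at least 3 libraries (12979) were tested with limma (3.58.1, R 4.3.3) on log2(FPKM + 1) values (genotype only, empirical Bayes with trend, two-sided, Benjamini-Hochberg over all genes tested), and called at an adjusted p under 0.05. Differences are d/d minus f/f and understate changes of low values. The code was tested on simulated data. Absolute depth is unknown, so no counting interval is given.

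Alternatives were a pseudocount of 0.1, no filter, a filter on the mean, median-of-ratios scaling, a weight per genotype, no trend, each library left out, and a replicate block. Members, lists and named genes (every small proline-rich row, up to 4 genes per list by unadjusted p, the 8 nearest profiles and markers needed beside a result) were chosen with earlier results of these data known. Genes named outside that rule, such as Wnt4, Padi1, Igf1, Wnt11, Esr1, Tgm1, Ivl, S100a6, S100a8, S100a9, S100a11, Ly6g and Mpo, were chosen after their values were seen. Promoters came from RefSeq and transcripts and gene positions from GENCODE M21, matched by symbol. Identity was counted over aligned bases of a global alignment.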

Additional observations from a re-analysis of the deposited data

How the results depend on the processing

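The differences of the 4 members tested and of Sprr2a3 were positive under every alternative. That of Sprr2f ranged from 3.70 to 5.01 (limma adjusted p = 0.0256 to 0.128) and passed in 10 of 13 alternatives, and that of Sprr2e from 0.97 to 3.08 (adjusted p = 0.0222 to 0.155), passing in 5 of 12. Sprr2e was not tested with a filter on the mean. Members that rose numbered 1 in place of 2 with a pseudocount of 0.1, a filter on the mean and a weight per genotype, and 0 to 3 with 1 library left out. Over all genes, 291 in place of 453 rose with no filter. With 1 library left out, 0 to 729 rose and 0 to 748 fell (494 with all libraries), and where 0 passed, without f/f replicate 1, 1114 were higher and 1178 lower at an unadjusted p under 0.05 (limma). Over the same left-out libraries, 0 to 11 of the estrogen-raised genes rose and 0 to 1 fell, 0 to 2 envelope genes rose and 0 to 1 fell, 0 to 3 factors rose, and 0 to 2 neighbouring genes rose and 0 to 1 fell. With no filter 2 factors rose. Over all genes, 571, 729 and 526 rose without d/d replicate 1, 2 or 3, and 0, 6 and 50 without f/f replicate 1, 2 or 3. The median SD over genes tested, on the log2 scale, was 0.301 in d/d and 0.126 in f/f libraries. A library left out also means fewer samples. The causes of these shifts were not tested.

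No pairing by replicate number was seen over the genes tested (correlations of same-numbered deviations -0.02, 0.02 and -0.02). Those of differently numbered libraries were -0.14 to 0.12. Such correlations cannot show that no pairing existed. With the replicate block 51 genes rose and 49 fell, 1 member (Sprr2f, adjusted p = 0.0379) and 5 estrogen-raised genes rose, and 0 factors and 0 neighbouring genes rose, while 1 luminal marker rose in place of 3 (adjusted p = 0.0550 for Krt7 and 0.0879 for Epcam). No read numbers are given, so what depth limits at low values, as in Sprr2a1, cannot be stated.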

Other observations

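GGACT, a sequence context that the Mettl3 complex is known to favour, was looked for in the annotated transcripts on the sense strand, a search chosen after the data were seen. It did not occur in Sprr2f (609 bases), Sprr2d (681), Sprr2e (647) or Sprr1a (806) and occurred 1 time in Sprr2b (784). Of 7418 protein-coding mouse transcripts of 600 to 850 bases, 58.6% held it at least 1 time. Other contexts were not searched, and these letters say nothing of whether a transcript is methylated.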
